A study of Drosophila melanogaster with 4 samples.

Results

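The islands described here are fly H3K9ac clusters on chromosome 4 and on pericentric sequence, with arm 2R and 2RHet left out. They were taken by position alone: every cluster on chromosome 4 and on the heterochromatic sequences 2LHet, 3LHet, 3RHet, XHet and YHet, and every cluster whose midpoint lies within 2 Mb of the centromere-side end of 2L, 3L, 3R or X. This end is the last base of 2L, 3L and X and the first base of 3R. ChIP replicate 1 held 357 such islands among its 6545 clusters, and ChIP replicate 2 held 373 among 7629. Arm ends held 270 and 298 of them, chromosome 4 held 55 and 47, and the 5 heterochromatic (Het) sequences held 32 and 28, in replicates 1 and 2. Together these sequences span 15.3 Mb. They are set against the remainder of the same 4 arms, 89.9 Mb with 4830 clusters in replicate 1 and 5649 in replicate 2.

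The material was whole third-instar larvae of the wild-type strain Oregon-R-modENCODE of Drosophila melanogaster, with genotype wild type in all samples and no treatment named. The labels name 2 ChIP libraries made with an antibody against histone H3 acetylated on lysine 9, and 2 input libraries. Since whole larvae mix many tissues, no cluster can be given to a cell type, and the sex of the larvae is not stated. Nothing in the labels ties the replicates to separate collections of larvae, so their spread may be technical.

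Acetylation of this lysine marks the promoters and early transcribed parts of active genes. Pericentric heterochromatin carries methyl groups on the same lysine instead, which are bound by the protein HP1a, and it is built largely of repeats with a small number of active genes embedded in it. Chromosome 4 is a small chromosome on which active genes and repeats alternate and which is also bound by HP1a and by POF, a protein specific to that chromosome. The Het sequences are stretches of pericentric heterochromatin, and for YHet of the Y chromosome, that the genome release of these files keeps apart from the arms. In larval polytene tissues heterochromatin is copied less often than the rest of the genome, and the lists give no copy number.

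Each list gives a start, an end and one value per region of significant enrichment, called a cluster. The value, called the score, was treated as a log2 value because the differences between frequent tied scores were log2 of ratios of whole numbers. What it is a ratio of is not given in the sources used here. Positions are those of FlyBase release 5, per the file headers. Read counts are not part of the lists, which leaves sequencing depth unknown, and no list of an input library was used here. How much of each sequence reads can be placed on is not known either. No test was run, since an exact permutation test on 2 libraries cannot pass a usual threshold, and all differences below are descriptions. No cluster was assigned to a gene, since the gene table at hand follows release 6, and for the same reason no sequence is printed.

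H3K9ac islands were sparse at 3 of the 4 arm ends and on the Het sequences, intermediate on chromosome 4 and dense at the 3R end. The 3R end held 68.0 clusters per Mb in replicate 1 and 80.0 in replicate 2, against 55.5 and 66.8 in the rest of 3R. The 2L end held 29.0 and 27.0 per Mb, against 51.8 and 61.5 in the rest of 2L. The X end held 22.5 and 24.5 per Mb, against 48.7 and 54.2 in the rest of X. The 3L end held the fewest of the 4, at 15.5 and 17.5 per Mb, against 58.0 and 67.4 in the rest of 3L. As ratios of the arm end to its own rest, these are 1.21 ± 0.0190 for 3R, 0.500 ± 0.0855 for 2L, 0.457 ± 0.00666 for X and 0.263 ± 0.00537 for 3L (mean ± SD, n = 2 replicates each). Chromosome 4 held 40.7 and 34.8 per Mb, below the rest of the 4 arms together at 53.7 and 62.8. The 5 Het sequences held 5.34 and 4.67 per Mb.

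**Figure D1:**
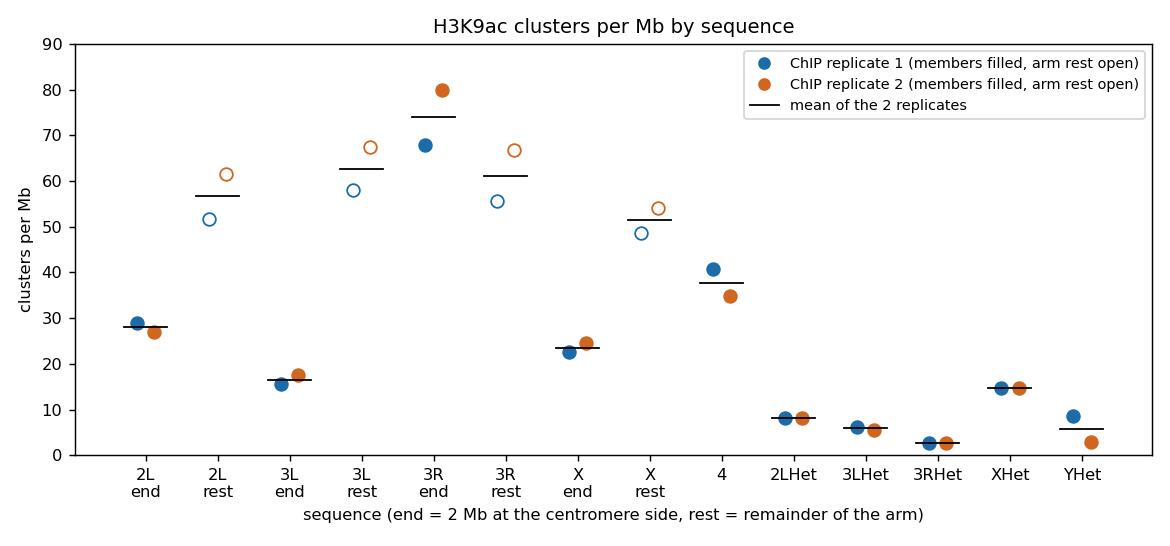
H3K9ac clusters per Mb (vertical axis) on each sequence, with arm ends left of the remainder of the same arm, in ChIP replicates 1 and 2 (points) and as their mean (line). The 3R end lies above its own remainder in both replicates, at 68.0 and 80.0 per Mb, and the 2L, 3L and X ends lie below theirs.

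The same order held for the sequence covered by clusters. Clusters covered 22.4% ± 1.31 of the 3R end, 8.13% ± 0.649 of the 2L end, 6.14% ± 0.0433 of the X end and 4.66% ± 0.0942 of the 3L end, against 18.9% ± 0.986, 16.9% ± 0.679, 16.3% ± 0.492 and 18.2% ± 0.854 in the rest of these arms (mean ± SD, n = 2 replicates each). Coverage of chromosome 4 was 9.67% ± 1.86, and that of the Het sequences was 1.28% ± 0.215, with 0.710% on 3RHet as the lowest and 4.51% on XHet as the highest in replicate 1.

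The 2L, 3L and X ends were the sparsest windows of their arms, and the 3R end was among the densest of its own. Counted in 2 Mb windows from the centromere side, the 2L end held 58 and 54 clusters, fewer than all 10 other full windows of 2L, which held 72 to 139 in replicate 1 and 77 to 163 in replicate 2. The X end, with 45 and 49, was also below all 10 others on X, which held 70 to 134 and 78 to 168. The 3L end, with 31 and 35, was below all 11 others on 3L, at 70 to 148 and 81 to 192. The 3R end held 136 and 160, more than 10 of 12 other windows in replicate 1 and 11 of 12 in replicate 2. The separate sequence 3RHet, by contrast, held 2.78 clusters per Mb in each replicate.

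Within the 2 Mb, the arms changed at different distances from the end. On 3L there was a step: the first 1.5 Mb held 12 clusters in replicate 1 and 8 in replicate 2, in counts of 2, 4 and 6 per 500 kb in replicate 1 and 2, 2 and 4 in replicate 2, and the next 500 kb held 19 and 27. On 2L the counts per 500 kb from the end outwards were 8, 15, 12 and 23 in replicate 1 and 6, 13, 12 and 23 in replicate 2. On X they were 7, 13, 20 and 5 in replicate 1 and 8, 14, 22 and 5 in replicate 2, so the sparsest part of the X end was the one farthest from the centromere. On 3R they were 38, 30, 48 and 20 in replicate 1 and 41, 37, 57 and 25 in replicate 2. Covered share peaked on 3R between 1 and 1.5 Mb from the end, at 36.6% and 38.6%. From 2 to 4 Mb the density was 55.0 and 66.5 per Mb on 2L, 65.0 and 83.5 on 3L, and 54.0 and 68.5 on X. There 3R was the sparsest of the 4 arms, at 39.5 and 49.0 per Mb, which is below its own 2 Mb end.

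**Figure D2:**
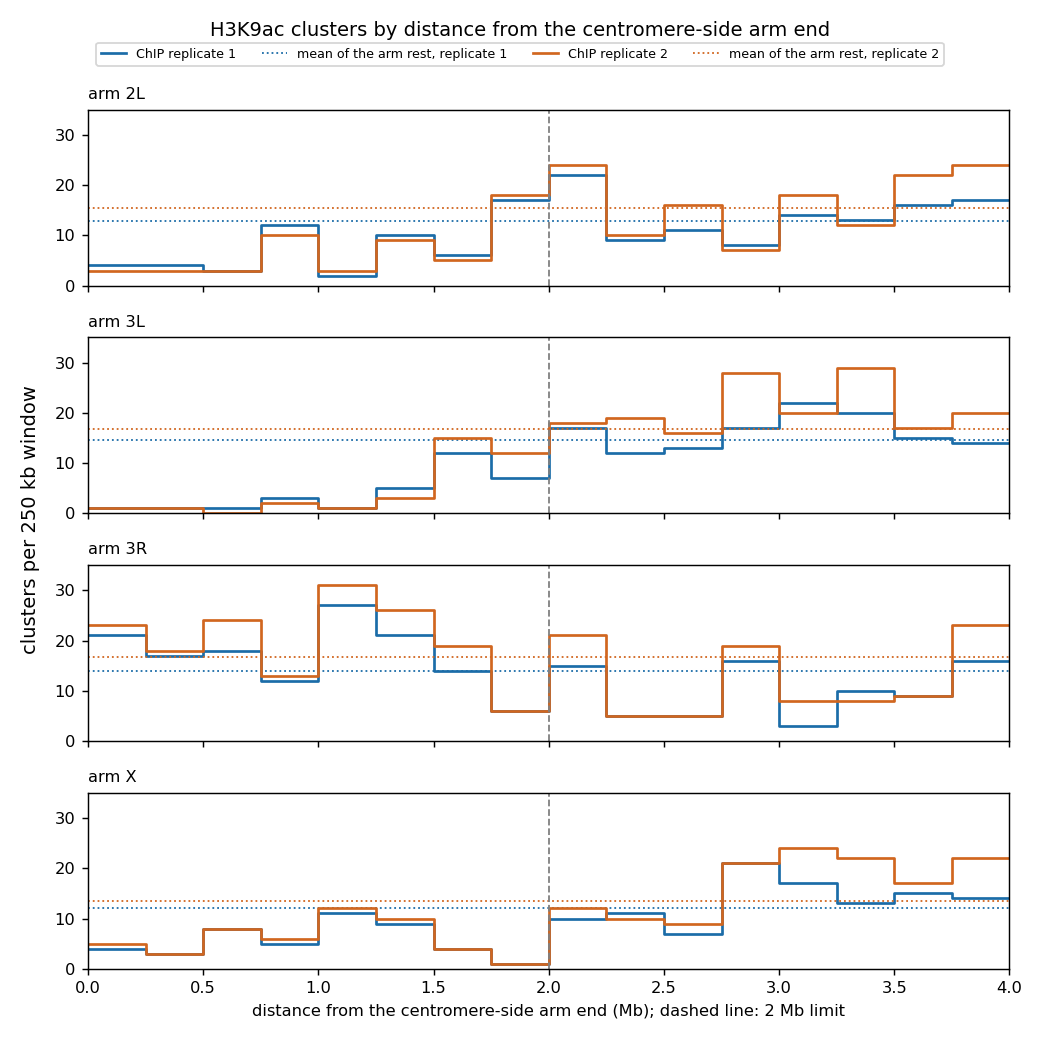
Clusters per 250 kb window (vertical axis) against distance from the centromere-side end in Mb (horizontal axis) for arms 2L, 3L, 3R and X, with ChIP replicates 1 and 2 as stepped lines, their means over the rest of the arm as dotted lines, and the 2 Mb limit dashed. On 3L, 6 clusters of replicate 1 and 4 of replicate 2 lie in the first 1 Mb, where 3R has 68 and 78.

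The limit of 2 Mb was set by position alone. The members nearest to it lay 1998 kb (score 0.46) and 1996 kb (0.37) from the end on 2L in replicates 1 and 2, 1881 kb (0.53) and 1999 kb (0.68) on 3L, 1983 kb (0.52) and 1983 kb (0.77) on 3R, and 1894 kb (0.91) and 1894 kb (0.72) on X. The first clusters beyond it lay at 2021 kb (0.44) and 2001 kb (0.49) on 2L, 2076 kb (0.43) and 2076 kb (0.58) on 3L, 2025 kb (0.57) and 2025 kb (0.43) on 3R, and 2027 kb (1.54) and 2027 kb (1.38) on X.

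Islands reached close to the last assembled base of each arm. On 3R the first cluster began at position 1 in replicate 1 and at position 4 in replicate 2, and the 2522 bp shared by both, from 4 to 2525, scored 1.46 in each. A cluster that starts at the first base may extend beyond the assembled arm. On X the last region covered in both replicates lay from 22413664 to 22416719, 6.11 kb from the end, with scores of 1.79 in replicate 1 and 1.49 in replicate 2. On 3L it lay from 24529592 to 24531839, 11.7 kb from the end (1.54 and 1.03), and on 2L from 22959613 to 22961972, 49.6 kb from the end (1.23 and 0.98). The 3L one was also the most isolated region of the arm ends, 304 kb from any other cluster of either replicate. All 4 of these last regions scored above the median of the rest of the arms in both replicates, 0.76 and 0.66.

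On 2L the islands thinned out towards the arm end. Joining clusters of either replicate that lay no more than 50 kb apart gave 11 groups, which together spanned 42.1% of the 2 Mb. The outermost group, from 21012999 to 21346277, held 22 clusters of replicate 1 and 23 of replicate 2 over 333 kb, and no other group on 2L held more than 7 of either. The longest region covered in both replicates was 7799 bp, from 21827761 to 21835559, scoring 0.82 in replicate 1 and 0.86 in replicate 2. It bordered the longest stretch without a cluster, 182 kb from 21836474 to 22018675. The region with the highest score by the mean of both replicates, from 21680047 to 21682936, scored 1.99 in replicate 1 and 1.80 in replicate 2. In replicate 1 alone, the cluster from 22441967 to 22444540 was higher, at 2.06. The most isolated one, from 22816797 to 22819005, lay 54.7 kb from its nearest neighbour and scored 1.29 and 0.68.

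On 3L most islands lay in 1 stretch far from the arm end. The group from 22661155 to 22940244 spanned 279 kb and held 18 of the 31 replicate 1 islands and 24 of the 35 replicate 2 islands. It contained both the longest region, 9510 bp from 22825239 to 22834748 (1.05 and 0.98), and the one with the highest mean score of both replicates, from 22862389 to 22867071, with 1.81 in each. In replicate 1 alone, the cluster from 23141623 to 23144436 was higher, at 1.84. Between this group and the arm end lay 1603 kb with 9 further groups, 7 of which held no more than 1 cluster of each replicate. The longest stretch without a cluster, 304 kb from 24226022 to 24529545, ended at the terminal island. The replicate-set list had 0 clusters in it, against 2, 1 and 3 in the longest such stretches of the 2L, 3R and X ends.

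On 3R the islands formed 4 long groups and 2 shorter ones of 4.23 and 62.2 kb, together spanning 76.7% of the 2 Mb. The first ran from position 1 to 363465 with 30 clusters in replicate 1 and 35 in replicate 2, and the longest from 465493 to 955549 over 490 kb with 38 and 43. The longest region covered in both replicates at any arm end, 10154 bp from 1288330 to 1298483, lay in the group from 1288132 to 1688993 and scored 1.84 and 1.66. The region with the highest mean score of both replicates at any arm end, from 1424245 to 1428704, lay in the same group and scored 2.18 and 1.81. In replicate 2 alone, the highest cluster at any arm end was another one of this group, from 1447230 to 1452136, at 2.05. Behind it the longest stretch without a cluster on the 3R end ran over 142 kb, from 1688994 to 1830902. It was followed by the most isolated region, 4200 bp from 1830926 to 1835125, 86.4 kb from its nearest neighbour and high in both replicates (1.64 and 1.52).

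On X the islands came in compact groups set far apart. Of 9 groups, 4 held 11, 13, 5 and 10 clusters of replicate 1 and 11, 15, 6 and 10 of replicate 2, over 102, 158, 41.6 and 98.1 kb. The other 5 held at most 3 of either. These groups spanned 21.7% of the 2 Mb, about as much as on 3L (21.6%), although X had more clusters than 3L. The longest region, 4864 bp from 21186278 to 21191141 (1.52 and 1.40), and the highest-scoring one, from 21193616 to 21197148 (1.86 and 1.85), were neighbours in the group from 21103073 to 21261406. The longest stretch without a cluster was 367 kb, from 20530777 to 20897902. On its far side lay the most isolated region of the X end, from 20527654 to 20530654, 131 kb from its nearest neighbour (0.91 and 0.72). Stretches of more than 50 kb without a cluster made up 78.0% of the X end, against 41.2% of the rest of X. The shares were 77.9% against 29.0% on 3L, 55.4% against 35.9% on 2L and 22.5% against 33.2% on 3R.

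**Figure D3:**
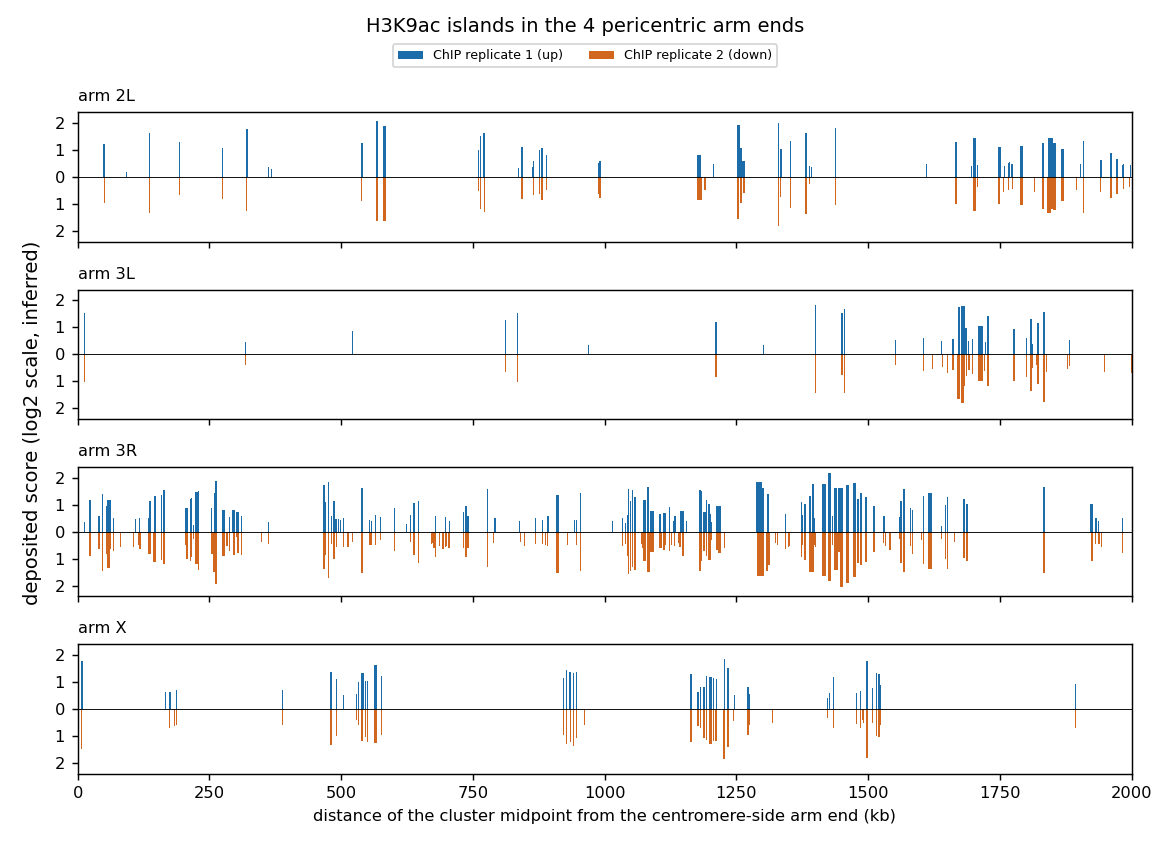
Clusters of the 4 pericentric arm ends drawn to scale, with the distance of the midpoint from the arm end in kb on the horizontal axis and the deposited score on the vertical axis, replicate 1 upwards and replicate 2 downwards. Islands on X stand in compact groups, those on 3L lie mostly beyond 1.6 Mb, and those on 3R fill the window.

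Spacing set the sequences apart in ways that density did not. The gap between neighbours is counted from the end of one cluster to the start of the next within the same sequence or arm end. At the X end the median gap was 5.08 kb in replicate 1 and 4.75 kb in replicate 2, close to the 4.74 and 4.64 kb of the rest of X, although the X end had 0.457 times as many clusters per Mb. At the 2L end the median gap was 11.3 and 11.1 kb, against 4.60 and 4.11 kb in the rest of 2L. At the 3L end it was 20.6 and 8.22 kb, against 5.07 and 3.99 kb, so the 2 replicates disagreed on its size but not on its side. At the 3R end it was 4.50 and 3.74 kb, against 4.56 and 3.80 kb in the rest of 3R. On chromosome 4 it was 14.6 and 16.1 kb and on the Het sequences 36.9 and 46.7 kb, against 4.70 and 4.11 kb in the rest of the 4 arms.

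Isolated islands, defined here by a nearest neighbour farther than 20 kb away on the whole sequence, were a larger share of the members than of all clusters. Of the members with a neighbour on their sequence, 52 of 357 (14.6%) were isolated in replicate 1 and 45 of 372 (12.1%) in replicate 2. Over the whole lists the shares were 5.19% and 4.34%, and in the rest of the 4 arms 4.51% and 3.84%. By sequence, isolated islands made up 38.7% and 28.6% at the 3L end, 20.7% and 16.7% at the 2L end, 16.4% and 14.9% on chromosome 4, 6.67% and 10.2% at the X end, and 3.68% and 1.88% at the 3R end. On the Het sequences they were 11 of 32 (34.4%) and 11 of 27 (40.7%). Among the arm ends, chromosome 4 and the pooled Het sequences, only the 3R end had a smaller share than the rest of the arms. Taken singly, the Het sequences ran from 71.4% on 3RHet in each replicate to 0% on XHet in each. YHet also had 0% in replicate 1.

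**Figure D4:**
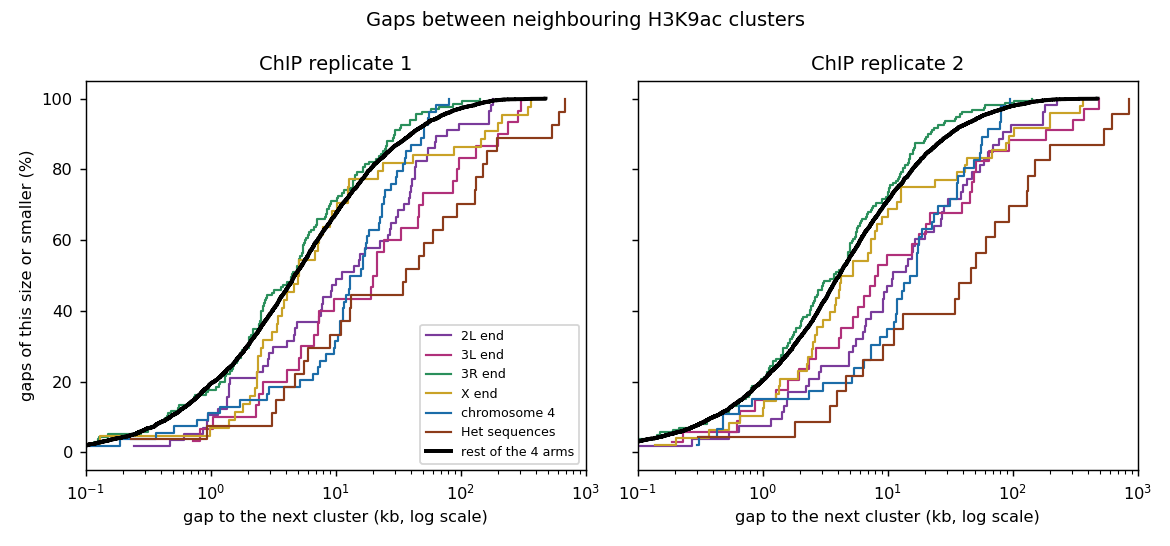
Cumulative share of gaps (vertical axis, %) by size in kb (horizontal axis, log scale) for each arm end, chromosome 4, the Het sequences and the rest of the 4 arms, in ChIP replicate 1 and replicate 2. The chromosome 4 curve stays low up to about 7 kb and then rises steeply, with quartiles of 7.72 and 27.2 kb in replicate 1, and the X median of 5.08 kb in replicate 1 is near the 4.70 kb of the rest of the arms.

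Chromosome 4 carried islands at comparatively even spacing. The lower and upper quartiles of its gaps were 7.72 and 27.2 kb in replicate 1 and 6.73 and 36.1 kb in replicate 2, against 1.52 and 14.7 kb and 1.36 and 12.1 kb in the rest of the arms. Gaps under 2 kb made up 14.8% and 15.2% on chromosome 4, against 30.4% and 32.6% in the rest of the arms. Low shares were not particular to chromosome 4, with 7.41% and 8.70% on the Het sequences. They were 10.0% and 23.5% at the 3L end, 13.6% and 22.9% at the X end, 21.1% and 17.0% at the 2L end and 29.6% and 35.2% at the 3R end. The coefficient of variation of the gaps was 0.905 and 1.03 on chromosome 4, lower than at each arm end (1.46 to 2.19) and in the rest of the arms (2.01 and 2.09). Its longest gap was 80.1 kb in replicate 1 and 95.5 kb in replicate 2, whereas the longest at the arm ends ran from 142 to 492 kb.

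Clusters were found along most of chromosome 4, though not at its tips. The first began at 62613 in replicate 1 and 62709 in replicate 2, and the last ended at 1299632 and 1299673, 52.2 kb before the end of the sequence in each. From low to high positions, 4 equal parts of the chromosome held 17, 11, 14 and 13 clusters in replicate 1 and 14, 12, 13 and 8 in replicate 2. The region with the highest mean score of both replicates among all members was on this chromosome, from 86197 to 88740, with 2.38 in replicate 1 and 1.87 in replicate 2. It was the highest member in replicate 1 and on chromosome 4 the highest in both, but not the highest member in replicate 2. The longest region covered in both replicates, 4967 bp from 1048616 to 1053582, scored 1.15 and 0.93. The most isolated one, from 950035 to 951990, lay 23.7 kb from its nearest neighbour and scored 1.16 in replicate 1 but 0.43 in replicate 2. The longest stretch without a cluster of either replicate was 79.9 kb, from 726952 to 806852. Clusters longer than 5 kb numbered 2 in replicate 1 and 0 in replicate 2, and the median length was 2294 and 2122 bp.

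The Het sequences held single islands and small groups of 2 or 3 far from anything else. Stretches of more than 50 kb without a cluster made up 93.9% of their 5.99 Mb. On 3LHet, which had the most, there were 16 islands in replicate 1 and 14 in replicate 2, and none between 710670 and 1395147, a stretch of 684 kb. The highest there by mean score, from 458747 to 461212, scored 1.98 and 1.46, and the most isolated, from 2242750 to 2245085, scored 1.61 and 1.02 at 51.1 kb from its neighbour. A 7633 bp cluster of replicate 1, from 203336 to 210968, was listed as 2 clusters in replicate 2, from 203862 to 206225 and from 208045 to 210488. The longest region of 3LHet covered in both replicates was 2868 bp, from 2396952 to 2399819 (1.82 and 1.51).

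On 3RHet the same 7 islands were listed in each replicate, and all 7 lay beyond position 1704233. Of these, 6 lay between 1704234 and 1936703, each 13.0 to 60.6 kb from its nearest neighbour in replicate 1. The last, from 2473617 to 2476204, followed after 537 kb and scored 1.24 and 0.97. It was the longest region of 3RHet covered in both replicates, at 2588 bp, and the highest by mean score, from 1767641 to 1769737, differed most between the replicates (1.78 and 0.94). In replicate 2 it was below 4 others of the 7. Lengths on 3RHet ran from 2329 to 2779 bp in replicate 1 and from 2097 to 2588 bp in replicate 2, and scores from 1.18 to 1.78 in replicate 1 and from 0.63 to 1.08 in replicate 2, so the scores of the 2 lists did not overlap.

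The 3 short Het sequences held 3 sites each. On 2LHet a pair of neighbours lay together, the longer of which, from 30676 to 33647, scored 1.70 and 1.18, and the third, from 167403 to 169978, lay 131 kb away with 1.69 and 1.41. On XHet the 3 islands lay within 26.5 kb, and the highest-scoring, from 59828 to 62998, had 1.57 and 1.42. The longest, from 74240 to 77784, had 1.37 and 1.01. The longest gap on XHet was 11.1 kb in replicate 1 and 11.2 kb in replicate 2, with 118 kb free of clusters behind the last. On YHet, 1 island was found in both replicates, from 304471 to 306714, with scores of 2.04 and 1.74. Another pair, from 320071 to 321822 and from 327388 to 329096, scored 0.74 each and was listed in replicate 1 only. How many larvae were male is not given, and the number of Y copies behind these values is unknown.

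Over the whole 2 Mb, the islands of each arm end had a higher median score than clusters of the rest of their arm. The median score differed from that of the rest of the same arm by 0.30 and 0.18 on 2L in replicates 1 and 2, 0.24 and 0.10 on 3L, 0.12 and 0.07 on 3R and 0.11 and 0.16 on X, so the difference was positive in 8 of 8 values. Nearer to the end this was not so on every arm. In the first 1 Mb of 3R the median was 0.62 and 0.63, against 0.74 and 0.64 in the rest of 3R. In the first 500 kb of X it was 0.70 and 0.66, against 0.92 and 0.79 in the rest of X. Medians of the first 1 Mb of 2L, 3L and X were above the rest of their arms in both replicates. On the Het sequences the median was 1.26 and 0.99, against 0.76 and 0.66 in the rest of the arms. On chromosome 4 it was 0.92 in replicate 1 and 0.58 in replicate 2, above the rest of the arms in one list and below it in the other. The threshold behind each list is not known, and its part in these differences was not tested.

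Lengths were close to those of the rest of the arms, and scores were compared again at matched length. Median lengths were 2476.5 and 2327.5 bp at the arm ends, 2294 and 2122 bp on chromosome 4 and 2492 and 2350 bp on the Het sequences, against 2546.5 and 2301 bp in the rest of the arms. Among clusters of 2001 to 3000 bp, the median score was 0.98 and 0.88 at the arm ends, 0.97 and 0.67 on chromosome 4 and 1.30 and 0.99 on the Het sequences, against 0.78 and 0.72 in the rest of the arms. This class held 24 of 32 Het islands in replicate 1 and 24 of 28 in replicate 2, or 75.0% and 85.7%, against 34.0% and 30.9% of the clusters in the rest of the arms. Clusters longer than 5 kb made up 10.0% and 7.38% at the arm ends, where 18 of 27 and 16 of 22 lay on 3R, and 12.9% and 10.1% in the rest of the arms. The 3R end held 136 of all 270 arm-end clusters in replicate 1 and 160 of 298 in replicate 2. Its own share longer than 5 kb was 13.2% and 10.0%, near that of the rest of the arms. At the other ends this share was 10.3% and 9.26% on 2L, 6.45% and 2.86% on 3L, and 2.22% and 0% on X.

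On the Het sequences isolated islands had the higher median score in both replicates, unlike on chromosome 4 and in the rest of the arms. The median score of isolated Het islands was 1.53 (replicate 1, 11 islands) and 0.99 (replicate 2, 11 islands). That of Het islands with a nearer neighbour was 1.00 and 0.89, from 21 and 16 islands. The YHet island of replicate 2 has no neighbour on its sequence and is in neither class. In the rest of the arms isolated clusters scored 0.58 and 0.60, below the 0.77 and 0.66 of the others. On chromosome 4 isolated islands scored 0.60 and 0.45, from 9 and 7 clusters, against 0.95 and 0.63 for the others. At the arm ends the 2 replicates differed in direction, with 0.87 for isolated against 0.94 for other islands in replicate 1 and 0.80 against 0.73 in replicate 2.

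Most islands were found in both replicates, and the lists differed by sequence. A partner, an overlapping cluster in the other list, was present for 305 of 357 islands in replicate 1 and 316 of 373 in replicate 2. All 47 islands of replicate 2 on chromosome 4 and all 28 on the Het sequences had one, whereas 11 of 55 and 5 of 32 in replicate 1 had none. At the 3R end the lack lay on the other side, where 14 of the 136 replicate 1 islands and 34 of the 160 replicate 2 islands had no partner. It also did at the 3L end (6 of 31 and 9 of 35) and the X end (4 of 45 and 7 of 49), but not at the 2L end (12 of 58 and 7 of 54). The share with a partner at the 3R end, 89.7% and 78.75%, was near the 87.4% and 77.2% of the rest of the arms. In the rest of the arms 610 of 4830 replicate 1 clusters and 1287 of 5649 replicate 2 clusters had none. The highest-scoring islands without a partner were, in replicate 1, on 3L from 24020907 to 24023707 (0.88), on 3LHet from 1561379 to 1564364 (0.74) and on YHet from 320071 to 321822 (0.74). In replicate 2 they were on 3L from 22891973 to 22893278 (0.68), on X from 21224141 to 21225480 (0.68) and on 3L from 22543254 to 22545089 (0.68).

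Paired islands scored higher in replicate 1 on average, by an amount that differed among the sequences. Over pairs that overlapped 1 cluster each way, the score of replicate 1 minus replicate 2 was 0.48 ± 0.21 on 3RHet (SD over 7 pairs, 7 higher in replicate 1), 0.37 ± 0.28 on 3LHet (12 pairs, 10 higher) and 0.38 ± 0.13 on 2LHet (3 pairs, 3 higher). XHet had 0.12 ± 0.25 (3 pairs, 2 higher) and the single YHet pair 0.30. On chromosome 4 it was 0.39 ± 0.21 (41 pairs, 39 higher), and 0.51, 0.39, 0.30 and 0.29 in its 4 equal parts from low to high positions. At the arm ends it was 0.20 ± 0.19 on 2L (45 pairs, 41 higher), 0.14 ± 0.27 on 3L (24 pairs, 15 higher), 0.09 ± 0.17 on X (40 pairs, 27 higher) and 0.05 ± 0.16 on 3R (101 pairs, 60 higher). In the rest of the 4 arms it was 0.04 ± 0.16 (3574 pairs, 2120 higher). The SD over pairs is a spread among clusters and not a replicate error, and a difference between 2 separately made lists is not a difference in acetylation.

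Only on 2L did this difference fall with each step away from the arm end. On 2L the difference was 0.36, 0.24, 0.23 and 0.10 in successive 500 kb from the end, from 6, 13, 10 and 16 pairs, and 0.01 between 2 and 4 Mb. On 3L it was 0.28, 0.57 and 0.45 in the first 3 steps of 500 kb, from 2, 2 and 4 pairs, then -0.01 in the next and 0.03 between 2 and 4 Mb. The drop on 3L came where clusters became dense. On 3R it was 0.06, 0.02, 0.06 and 0.05, no larger than the 0.08 between 2 and 4 Mb. On X the values were 0.09, 0.15, 0.01 and 0.27, against -0.04 between 2 and 4 Mb, with the 0.27 from 5 pairs in the sparse outer 500 kb.

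**Figure D5:**
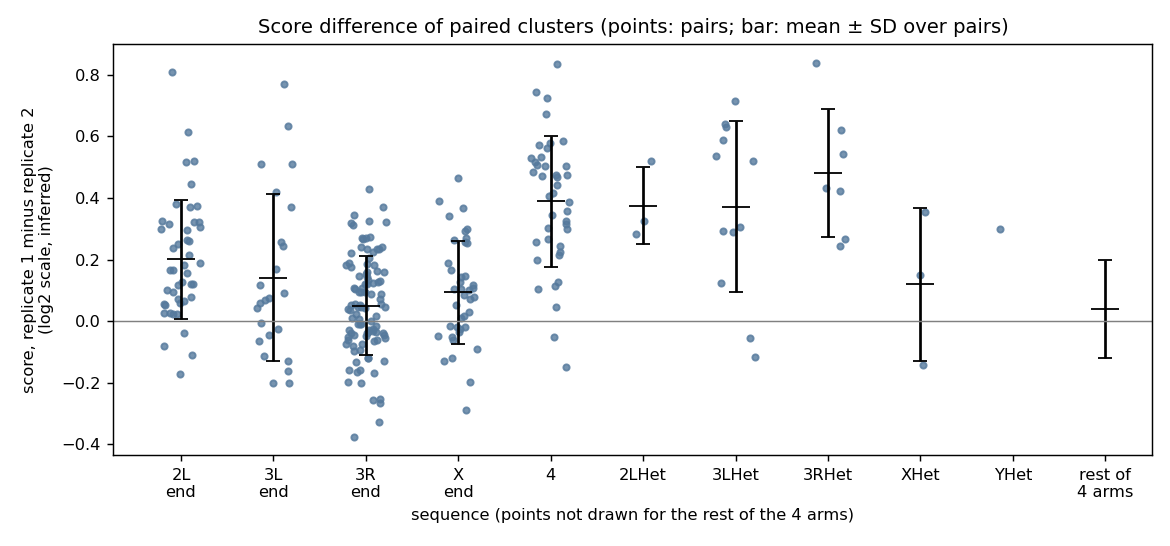
Score of replicate 1 minus replicate 2 (vertical axis, inferred log2 scale) for each pair of overlapping islands (points), by sequence, with the mean ± SD over pairs (bars) and, at the right, the mean ± SD of the rest of the 4 arms. On chromosome 4, 39 of 41 pairs lie above 0, and on 3RHet all 7 do, while the 3R end is centred near 0.05.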

How the data were processed

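In all, 3 deposited lists of clusters entered: that of each ChIP replicate, called per sample, and that of the replicate set. The submitters' processing notes name Bowtie 0.12.7, and the file headers name FlyBase release 5. The sources used here give neither the caller and its threshold nor the input set against each library. The authors' deposited score was read as a log2 value. Of 780 differences between the 40 commonest scores of a list, 700 (replicate 1), 768 (replicate 2) and 763 (replicate set) equalled log2 of some ratio of whole numbers, the lower one at most 5000, within a relative tolerance of 1e-11. Natural log or log10 fitted at most 1. Starts and ends are 1-based and inclusive.

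Counts, covered length, gaps, nearest neighbours, overlaps of at least 1 bp and pairs were computed with Python 3.11.15, numpy 2.4.6 and pandas 2.3.3 and tested on simulated data. Each replicate gave 1 value, with mean and SD over 2 replicates, and no test was run. Arm 2R and 2RHet, outside the rule, are in neither group. Regions were named by rule: the longest, highest-scoring (by the mean of both replicates), most isolated and, at arm ends, innermost region covered in both replicates, the longest stretch without a cluster, and the 3 highest-scoring islands of each replicate without a partner. Members, rule and measures were chosen with earlier results of these data known. Groups within 50 kb, gap quartiles and variation, 2 Mb windows, length classes and equal parts of chromosome 4 were added after the values were seen. Settings tried besides these are given in the closing section.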

Additional observations from a re-analysis of the deposited data

Results flagged for a closer look

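The replicate-set list contained 85 clusters on these sequences that no cluster of either replicate overlapped, which is 17.9% of its 475. Their median score was 0.35, and their length had a median of 1221 bp. The 3R end had 42, or 21.4% of its 196 clusters in this list, and the X end had 16, or 24.2%. The 2L end had 10 (13.9%) and the 3L end 6 (15.0%). Chromosome 4 had 3 (5.00%) and the Het sequences had 8 (19.5%). In the rest of the 4 arms the share was 28.5%, or 2177 clusters. The 85 were singled out because the comparisons above do not use this list, apart from the longest cluster-free stretches of the arm ends. No list of an input library was at hand to set them against.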

How the results depend on the processing

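Values are means of both replicates unless another list is named. With the highest-scoring 50% of each list, clusters per Mb were 20.0 at the arm ends, 19.6 on chromosome 4 and 4.00 on the Het sequences, against main values of 35.5, 37.7 and 5.01. Median gaps were 9.82 kb at the arm ends and 25.7 kb on chromosome 4 (main 5.42 and 15.3), isolated shares 22.5%, 39.6% and 50.0% at the arm ends, on chromosome 4 and on the Het sequences, against 13.5% in the rest of the arms (main 10.5%, 15.6%, 37.6% and 4.18%), and median lengths 3097.5 bp at the arm ends and 2688.75 bp on chromosome 4 (main 2402 and 2208). The rest of the arms moved too, to 28.8 per Mb, 9.01 kb and 3353 bp (main 58.3, 4.40 and 2423.75). In this setting the libraries differed by over 1.5 times on chromosome 4, with 24.4 per Mb, 19.0 kb and 24.2% in replicate 1 and 14.8 per Mb, 32.4 kb and 55.0% in replicate 2. Beside these, the rest of the arms had 26.6 per Mb in replicate 1 and 31.0 in replicate 2. With clusters under 1 kb apart joined, arm ends had 30.4 per Mb, a gap of 7.40 kb, a length of 2657.5 bp and 13.2% isolated, chromosome 4 had 32.9 per Mb, 17.2 kb and 20.4%, and 44.7% of Het islands were isolated. For the rest of the arms these were 46.7 per Mb, 6.59 kb, 2821.5 bp and 5.98%. In the replicate-set list, arm ends had 46.75 per Mb, 3.66 kb and 8.02% isolated, chromosome 4 had 44.4 per Mb, 12.9 kb and 11.7%, and the Het sequences 6.84 per Mb and 24.4%. The same list gave 85.1 per Mb, 2.56 kb and 1.67% in the rest of the arms. Arm ends of 1 Mb had 30.0 per Mb, 6.05 kb and 12.9%, against 57.6 per Mb, 4.43 kb and 4.31% in the remainder of the arms. With isolation beyond 10 kb, the shares were 17.3%, 42.8% and 49.4% at the arm ends, on chromosome 4 and on the Het sequences, against 11.1% in the rest of the arms. Beyond 50 kb they were 4.42%, 2.13% and 20.5%, against 0.761%. There chromosome 4 had 0% in replicate 1, below the 0.725% of the rest, and 4.26% in replicate 2. The share of islands with a partner was 84.5% at an overlap of 50% and 87.9% among the highest-scoring 50%, against 85.1% in the main setting. Leaving out 1 of 2 replicates gives the value of the other, so it says nothing about stability, and both are in the report.

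By the mean over lists, 69 of 75 alternative values lay on the same side of the rest of the arms as the main value. The 75 include the values without 1 replicate, which repeat those of the other replicate, so this count overstates how many settings were tried. The other 6 were median lengths at the arm ends and on the Het sequences (the replicate-set list, and without replicate 1) and the share with a partner (the highest-scoring 50%, and without replicate 2). Pairings of the score difference and a rest of the arms without its telomere-side 2 Mb were added after seeing the data. The score difference, on the log2 scale, was 0.10 to 0.14 for arm ends, 0.39 to 0.43 for chromosome 4 and 0.35 to 0.37 for Het sequences over these settings. That rest held 56.9 clusters per Mb, against 58.3 in the main setting. Replicate numbers are shared by ChIP and input samples, but no input list was used here, so ChIP was not paired with input. Depth and mappability are unknown, so a stretch without a cluster may be one in which none could be called.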
